A study of Mus musculus with 8 samples.

Results

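The 10 genes described here encode hormones of the antral stomach (Gast, Sst and Ghrl), the granins Chga and Chgb, the serotonin-synthesis enzyme Tph1 and the endocrine transcription factors Neurog3, Neurod1, Insm1 and Pax6. They were taken by symbol from the 27179 entries of the deposited count table, and all 10 were found there. RNA was measured in EpCAM+ cells, the epithelial fraction obtained by flow cytometry from antral tumors, with 1 library per mouse. The 4 Yap1KO mice were Gp130FF; Tff1:CreERT2; Yap1fl/fl animals in which tamoxifen switches on a Cre recombinase that removes exon 3 of Yap1, and the 4 Yap1WT mice are labelled gp130FF; Yap1WT. All 8 mice thus carry the Gp130FF knock-in, a point mutation of the gp130 cytokine receptor that causes gastric tumors. The Cre acts where Tff1 regulatory elements are active, which the study infers to include neuroendocrine cells beside foveolar, mucous neck, parietal, chief, tuft and tumor epithelial cells, and which cells had lost Yap1 cannot be told from bulk RNA. The labels and methods give an age of 18 wk, against a higher age in the results text of the study, and the labels give 3 days after tamoxifen for all 8 mice while the methods describe floxed mice given vehicle as Yap1WT.

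Enteroendocrine cells are scattered hormone-secreting cells of the gut epithelium. In the antrum, G cells secrete gastrin, which drives acid secretion, D cells secrete somatostatin, which restrains G cells and acid secretion, enterochromaffin cells release serotonin, and X/A-like cells release ghrelin. Neurog3 starts the endocrine fate in intestinal and antral progenitors, Neurod1, Insm1 and Pax6 act after it, and the granins fill the secretory granules of the mature cells. YAP1 is a co-activator without DNA binding of its own and reaches DNA mainly through TEAD factors.

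To show the DNA next to the genes whose levels are compared, the 250 bases before the start site were taken from the RefSeq promoter set of GRCm38.p6, the build to which the reads were aligned, and 9 of the 10 genes matched it. Of these, 4 are printed from 5′ to 3′ on the strand of the gene. Sst and Chgb are shown because their levels were ordered alike over the 8 libraries, Gast because it did not follow the other genes, and Tph1 because it had the highest fold change. Capitals mark matches on either strand to the cAMP response element TGACGTCA, to the TEAD core GGAATG and to the E-box CAGNTG, and no matches overlapped in these windows.
Sst: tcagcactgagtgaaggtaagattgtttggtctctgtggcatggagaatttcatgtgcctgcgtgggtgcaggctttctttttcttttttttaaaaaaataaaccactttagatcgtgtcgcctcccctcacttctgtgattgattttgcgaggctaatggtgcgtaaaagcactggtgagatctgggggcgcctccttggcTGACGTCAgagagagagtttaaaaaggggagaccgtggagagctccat
Chgb: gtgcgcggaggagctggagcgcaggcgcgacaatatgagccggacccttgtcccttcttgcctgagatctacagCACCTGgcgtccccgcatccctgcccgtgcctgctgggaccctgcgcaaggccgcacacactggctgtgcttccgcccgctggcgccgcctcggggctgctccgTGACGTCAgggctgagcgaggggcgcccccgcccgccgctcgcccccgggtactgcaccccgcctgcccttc
Gast: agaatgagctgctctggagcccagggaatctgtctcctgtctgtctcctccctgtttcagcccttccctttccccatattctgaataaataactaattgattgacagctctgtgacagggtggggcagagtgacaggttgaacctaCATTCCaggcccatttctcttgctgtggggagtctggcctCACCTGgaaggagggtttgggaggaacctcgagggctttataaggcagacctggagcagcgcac
Tph1: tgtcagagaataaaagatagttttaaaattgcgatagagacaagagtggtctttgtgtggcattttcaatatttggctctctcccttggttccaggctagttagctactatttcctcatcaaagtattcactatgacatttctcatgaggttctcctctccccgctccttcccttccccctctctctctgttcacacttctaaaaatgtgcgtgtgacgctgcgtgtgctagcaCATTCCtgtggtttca
The Sst window lies on chr16:23890845-23891094 (minus strand), inside the RefSeq extent of the gene because another annotated start lies farther upstream. The Chgb window is chr2:132781392-132781641 (plus strand), the Gast window chr11:100334157-100334406 (plus strand) and the Tph1 window chr7:46672538-46672787 (minus strand). The cAMP response element starts 48 bases before the start site in Sst and 72 bases before it in Chgb, and it also occurs 76 bases before 1 of the Pax6 starts. It was found in 3 of the 14 windows of these genes, against 1.55% of 32851 RefSeq windows of the same length. The TEAD core was found 104 bases before the start in Gast and 16 bases before it in Tph1, and in 4 of the 14 windows in all, against 12.6% of the 32851. The E-box was found in 6 of the 14, against 44.8%, among them 3 matches in the Chga window, 1 in Chgb and 1 in Gast. Of the genes with several windows, Ghrl has 2 that overlap, and a match of letters is a description of the sequence only.

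Libraries held 18229945 to 74278015 counts in Yap1KO and 27607755 to 77483047 counts in Yap1WT. Yap1 itself had 25.7 ± 3.71 CPM (counts scaled to library size, adjusted with TMM factors) in Yap1KO and 72.9 ± 6.33 CPM in Yap1WT (SD, n = 4 each), and fell by 1.51 on the log2 scale (SE 0.13, adjusted p = 0.000208 from edgeR). Epcam, the gene of the sorting antigen, had 1524 to 1759 CPM in Yap1KO and 938 to 1036 CPM in Yap1WT. Some libraries stood apart in markers of other tissue. The intestinal enzyme gene Sis had 638 counts in Yap1KO replicate 1 and at most 25 in any other library, and the pancreatic gene Ctrb1 had 8287 counts in Yap1KO replicate 2 and at most 18 elsewhere. The islet genes Ins1, Ins2 and G6pc2 had 0 counts in all 8 libraries. Counts of endocrine RNA in sorted tissue do not tell apart the number of endocrine cells from the RNA per cell.

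Levels between genes were compared on the deposited log2 RPKM scale, which accounts for gene length. Ghrl was the highest of the 10 with a mean log2 RPKM of 8.66 ± 0.41 in Yap1KO and 8.01 ± 0.71 in Yap1WT (SD, n = 4 each). Gast followed with a mean log2 RPKM of 6.77 ± 1.12 in Yap1KO and 7.16 ± 0.56 in Yap1WT. Sst was at 7.01 ± 0.30 in Yap1KO and 6.49 ± 0.29 in Yap1WT on the same scale. The order of the hormones was only partly fixed, since Ghrl lay above Gast in 7 of 8 libraries but Gast above Sst in 5 of 8. By mean over the 8 libraries the granins came next, Chga with a log2 RPKM of 6.47 ± 0.57 in Yap1KO and 5.89 ± 0.35 in Yap1WT, and Chgb with 6.72 ± 0.72 in Yap1KO and 5.58 ± 0.73 in Yap1WT. Chga lay above Chgb in 4 of 8 libraries, so these 2 had no order. Chgb lay above Gast in 3 of 8 libraries and above Sst in 2 of 8, so hormones and granins were not fully separated. Tph1, at 3.32 ± 0.81 in Yap1KO and 2.15 ± 0.58 in Yap1WT, was below Chgb in 8 of 8 libraries. The 4 transcription factors were lowest, with means over the 8 libraries of 0.86 for Neurod1, 0.65 for Insm1, 0.42 for Pax6 and -0.49 for Neurog3. Insm1 lay above Pax6 in 3 of 8 libraries and their order was not separated, while Pax6 lay above Neurog3 in 7 of 8. Among the 13819 genes with deposited log2 values, the mean level of Ghrl was at percentile 98.9, that of Tph1 at percentile 46.2 and that of Neurog3 at percentile 12.0.

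By edgeR's adjusted p, 0 of the 10 genes were called higher and 0 lower in Yap1KO cells. Of the 13495 genes tested in all, 3.53% were called higher and 2.34% lower. At an unadjusted p under 0.05, 4 of the 10 were higher (Sst, Chga, Chgb and Tph1) and 0 lower, against 11.5% and 8.97% of all genes tested. DESeq2 called 1 higher, Tph1, and 0 lower, against 6.36% and 4.35% of all genes. limma-voom called 0 higher and 0 lower, against 4.23% and 2.85% of all genes. The lowest Yap1KO library was not above the highest Yap1WT library for any of the 10, nor the reverse, against 7.19% and 6.01% of all genes. All 10 passed the filter on low counts. Of their log2 fold changes 8 of 10 were above 0, with a median of 0.53, against 48.6% and a median of -0.01 over all genes tested.

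**Figure D1:**
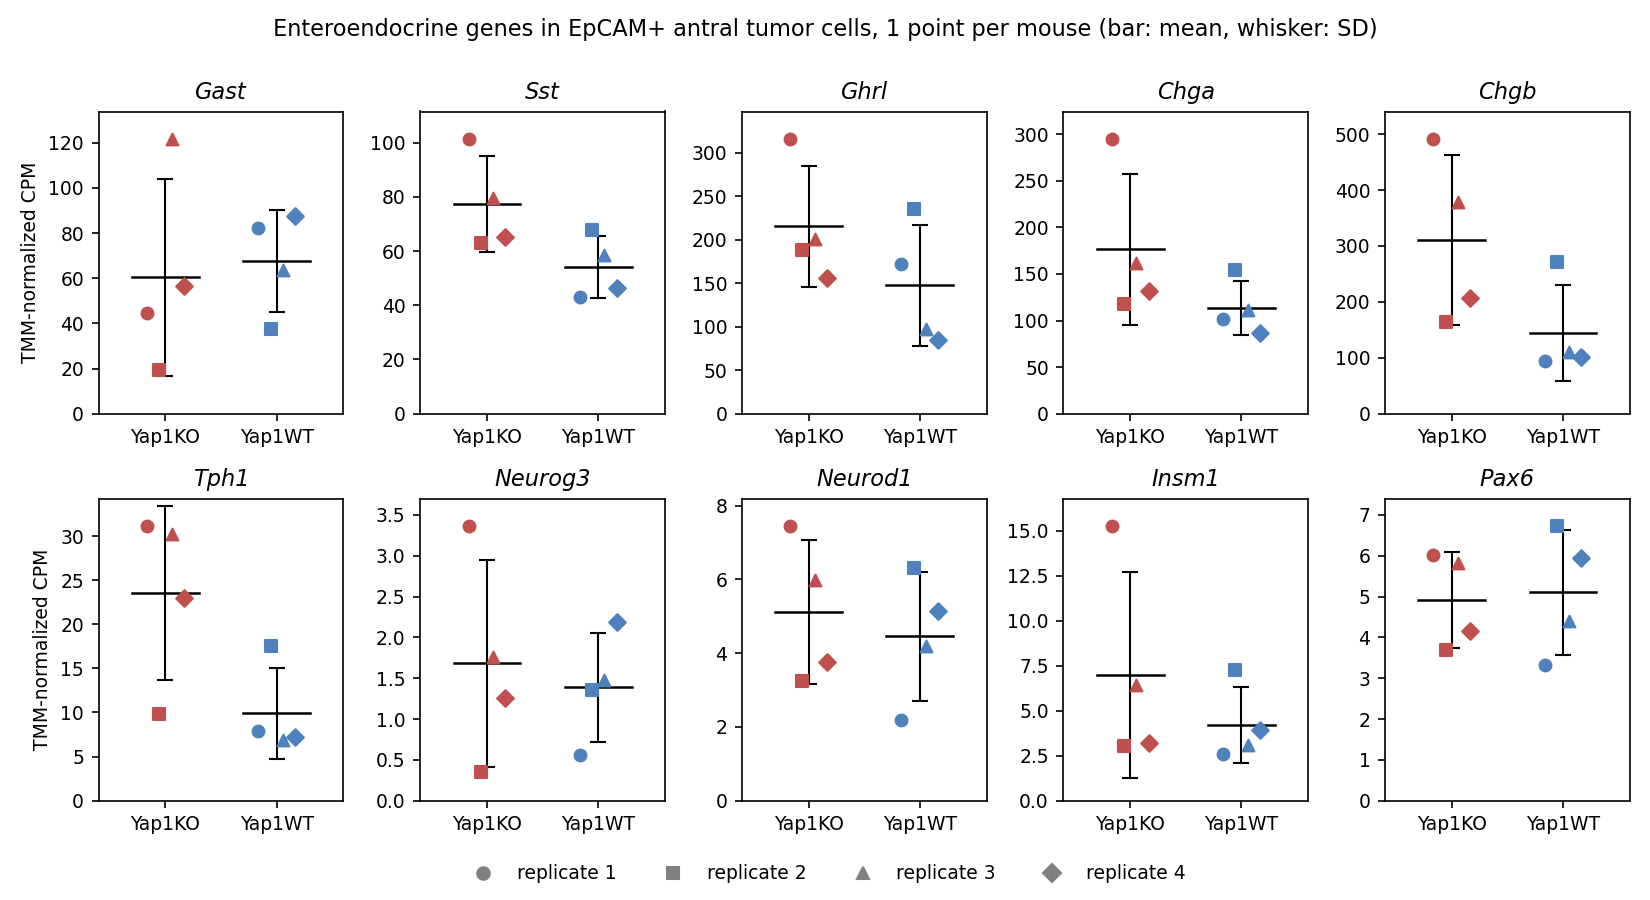
TMM-normalized CPM (vertical axes, each from 0) of the 10 genes in the 4 Yap1KO libraries (red, left) and the 4 Yap1WT libraries (blue, right), with 1 symbol per mouse, the mean (bar) and the SD (whisker). The groups overlap in every panel, and Yap1KO replicate 1 is the highest of the 8 libraries for 8 of the 10 genes.

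Gast, which encodes the acid-driving hormone of G cells, had 44.4, 19.3, 122 and 56.5 CPM in Yap1KO replicates 1 to 4, against 82.3, 37.4, 63.6 and 87.3 CPM in Yap1WT replicates 1 to 4. Yap1KO held both the lowest and the highest library of the 8, so the Yap1WT values lay inside the range of Yap1KO. The log2 fold change was -0.16 (SE, standard error, 0.46, 95% interval -1.19 to 0.87, adjusted p = 0.893 from edgeR). It was 0.14 without Yap1KO replicate 2, so its sign rested on that library. The mouse numbers form a lower series (replicates 1 and 2 of each group) and a higher one (replicates 3 and 4). The Yap1KO minus Yap1WT difference was -0.92 on the log2 scale in the lower series and 0.15 in the higher one.

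Sst, the gene of the D-cell hormone somatostatin, had 101, 63.0, 79.5 and 65.2 CPM in the Yap1KO libraries, against 43.2, 67.9, 58.7 and 46.3 CPM in the Yap1WT libraries. Yap1WT replicate 2 was above 2 of the Yap1KO libraries, and the other 3 Yap1WT libraries were below all of them. The log2 fold change was 0.52 (SE 0.19, 95% interval 0.11 to 0.93, adjusted p = 0.145), the smallest standard error of the 10. The difference was 0.56 on the log2 scale in the lower and 0.47 in the higher series of mouse numbers.

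Ghrl, the gene of ghrelin, had 316, 188, 201 and 156 CPM in the Yap1KO libraries, against 172, 235, 97.8 and 85.2 CPM in the Yap1WT libraries. The 2 groups shared the range from 156 to 235 CPM, and the lowest 2 libraries were Yap1WT replicates 3 and 4. The log2 fold change was 0.55 (SE 0.32, adjusted p = 0.394), with differences of 0.28 in the lower and 0.96 in the higher mouse series. It was 0.30 without Yap1KO replicate 1, 0.36 without Yap1WT replicate 4 and 0.86 without Yap1WT replicate 2. Mboat4, whose product attaches the acyl group that ghrelin needs for its receptor, had a log2 fold change of 0.99 with an SE of 0.49 (adjusted p = 0.299).

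Chga, a granin used as a general marker of endocrine cells, had 295, 117, 161 and 132 CPM in the Yap1KO libraries, against 102, 154, 112 and 86.7 CPM in the Yap1WT libraries. Yap1KO replicate 1 stood above all others, and Yap1WT replicate 2 lay within the range of the remaining Yap1KO libraries. The log2 fold change was 0.63 (SE 0.28, adjusted p = 0.242), and it was 0.27 without Yap1KO replicate 1.

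Chgb, the second granin, had 491, 163, 379 and 208 CPM in the Yap1KO libraries, against 93.4, 271, 110 and 102 CPM in the Yap1WT libraries. Yap1WT replicate 2 was more than 2-fold above the other 3 Yap1WT libraries, which were below every Yap1KO library. The log2 fold change was 1.11 (SE 0.42, 95% interval 0.18 to 2.03, adjusted p = 0.163). Without Yap1WT replicate 2 it was 1.61 with an adjusted p of 0.0344, in a range of 0.0344 to 0.363 over the alternatives, so the call depended on that library.

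Tph1 encodes tryptophan hydroxylase 1, the rate-limiting enzyme of serotonin synthesis outside the brain. It had 31.2, 9.85, 30.2 and 23.0 CPM in the Yap1KO libraries, against 7.95, 17.6, 6.88 and 7.20 CPM in the Yap1WT libraries. Only the lowest Yap1KO library, replicate 2, and the highest Yap1WT library, replicate 2, crossed. Its log2 fold change of 1.25 was the largest of the 10 (SE 0.40, 95% interval 0.37 to 2.14, adjusted p = 0.104 from edgeR). The adjusted p was 0.0117 with DESeq2, 0.0277 without Yap1KO replicate 2 and 0.0309 without Yap1WT replicate 2, in a range of 0.0117 to 0.264 over the alternatives. The difference was 0.57 on the log2 scale in the lower mouse series and 1.90 in the higher one. Mast cells also make Tph1. Of their markers, the protease genes Mcpt1 and Mcpt4 rose (log2 fold changes 2.57 and 5.25, adjusted p = 0.0473 and 0.00183), and the summed level of the 10 measured markers was 353 to 1039 CPM in Yap1KO and 53.4 to 269 CPM in Yap1WT. All 5 tested markers had log2 fold changes above 0, with a median of 2.44. Among them, Kit had 32.1 to 44.6 CPM in Yap1KO and 27.1 to 33.6 CPM in Yap1WT. Of the markers too low to be tested, Cpa3, Tpsb2, Fcer1a and Ms4a2 had at most 9 counts in any Yap1KO library. In any Yap1WT library they had at most 39. Cma1, also too low, had 7, 9, 34 and 29 counts in the Yap1KO libraries, against 15, 3, 6 and 0 in the Yap1WT libraries. The part of mast cell RNA in Tph1 was not tested.

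The 4 transcription factors had the fewest counts of the 10 genes, and SEs of 0.30 for Pax6 to 0.64 for Neurog3. Neurog3, which marks endocrine progenitors, had 182, 11, 136 and 23 counts in the Yap1KO libraries, or 3.36, 0.35, 1.76 and 1.26 CPM, against 43, 58, 102 and 61 counts, or 0.55, 1.35, 1.48 and 2.18 CPM, in the Yap1WT libraries. The highest and the lowest library were both Yap1KO, and the log2 fold change of 0.30 had a 95% interval of -1.12 to 1.72 (adjusted p = 0.845). Its sign turned to -0.29 without Yap1KO replicate 1 and to -0.32 on the deposited log2 values.

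Neurod1, which acts below Neurog3, had 7.45, 3.25, 5.99 and 3.77 CPM in the Yap1KO libraries, against 2.18, 6.31, 4.20 and 5.16 CPM in the Yap1WT libraries. The values of the groups interleaved and the log2 fold change was 0.21 (SE 0.38, adjusted p = 0.818), turning to -0.03 without Yap1KO replicate 1 and -0.02 without Yap1WT replicate 1. Insm1, a zinc-finger factor that promotes endocrine differentiation, had 15.3, 3.03, 6.46 and 3.22 CPM in the Yap1KO libraries, against 2.59, 7.27, 3.10 and 3.90 CPM in the Yap1WT libraries. Yap1KO replicate 1 was more than 2-fold above all other libraries, and the log2 fold change of 0.74 (SE 0.54, adjusted p = 0.494) was 0.02 without it. Pax6, a paired-box factor of hormone genes, had 6.01, 3.69, 5.82 and 4.15 CPM in the Yap1KO libraries, against 3.33, 6.73, 4.40 and 5.94 CPM in the Yap1WT libraries. Its groups covered nearly the same range (log2 fold change -0.04, 95% interval -0.71 to 0.62, adjusted p = 0.957), and the sign turned without Yap1KO replicate 2 or 4 or Yap1WT replicate 2 or 4. The RefSeq genes Pax6os1 and Elp4 overlap the ends of Pax6, and the library kit did not mark strand, so the Pax6 level is uncertain to that extent.

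**Figure D2:**
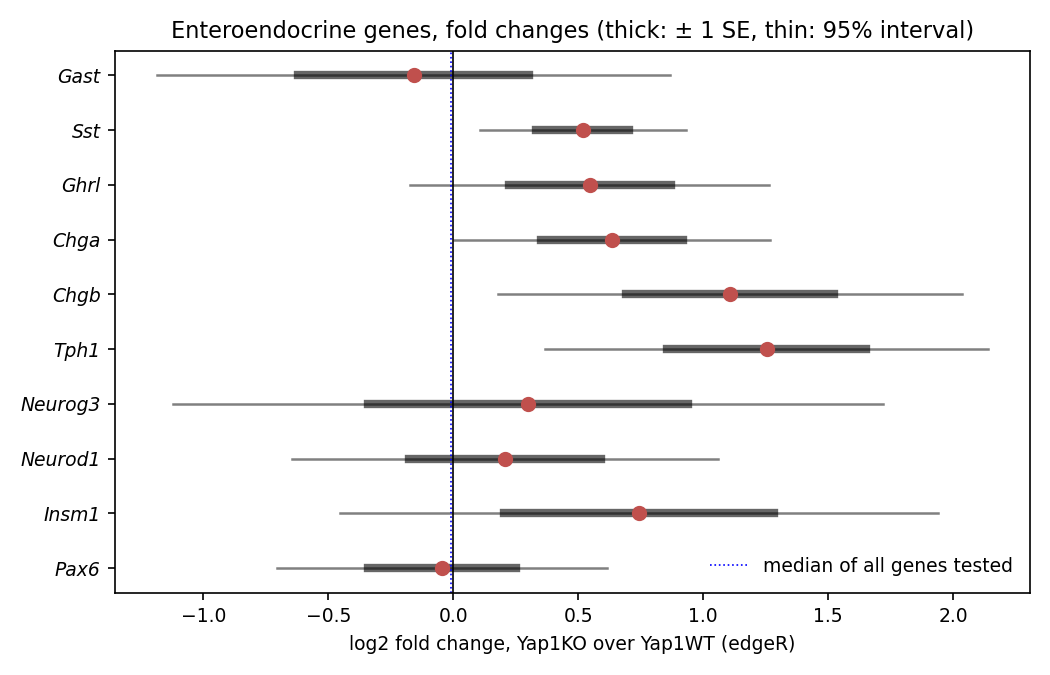
Log2 fold change of Yap1KO over Yap1WT from edgeR (horizontal axis) for the 10 genes, with 1 standard error (thick line) and the 95% interval (thin line). The intervals of Sst, Chga, Chgb and Tph1 lie above 0 before adjustment, from 0.003 for Chga to 2.14 for Tph1, and the dotted line at -0.01 is the median of all genes tested.

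Levels of the 10 genes varied widely between mice of the same group. Yap1KO replicate 1 had the highest level of the 8 libraries for 8 of them, Yap1KO replicate 3 for Gast and Yap1WT replicate 2 for Pax6. Within Yap1KO, replicate 2 was lowest for 9 of the 10. Within Yap1WT, replicate 2 was highest for 8 of the 10 and lowest for Gast. Summed over the 10 genes, the level was 1311, 571, 993 and 652 CPM in the Yap1KO libraries, against 432 to 805 CPM in the Yap1WT libraries, or 0.0432% to 0.131% of the counts of a library. Yap1KO replicate 1, with the highest sum, is also the library with the Sis counts, and Yap1KO replicate 2, with the Ctrb1 counts, has the lowest sum of its group. The part of these markers' source in the endocrine levels was not tested. Without Yap1KO replicate 1 the fold changes of Sst, Chgb and Tph1 stayed above 0, at 0.36, 0.80 and 1.09 on the log2 scale.

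**Figure D3:**
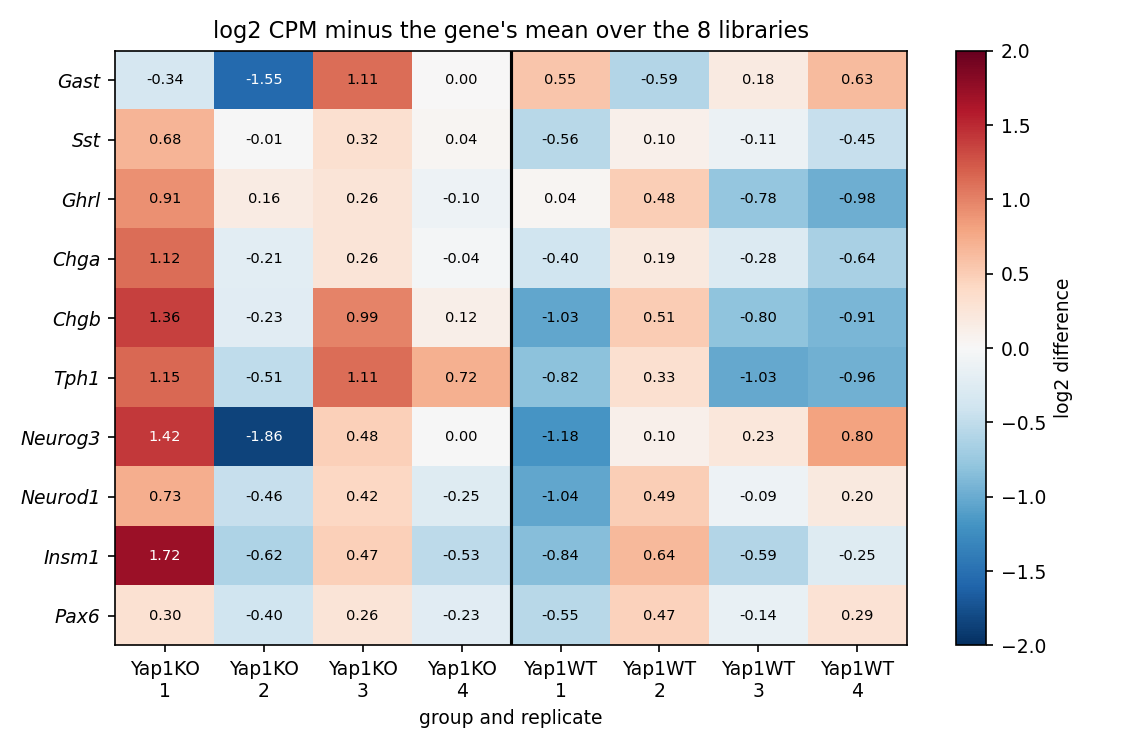
Log2 CPM of each gene (rows) in each library (columns, Yap1KO left of the line and Yap1WT right of it) minus the mean of the gene over the 8 libraries (red above, blue below). The Yap1KO replicate 1 column is red for every gene but Gast, whose row runs from -1.55 in Yap1KO replicate 2 to 1.11 in Yap1KO replicate 3.

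Across the libraries, Gast stood apart from most of the other genes. For the 36 pairs without Gast, Pearson's r of log2 CPM over the 8 libraries had a median of 0.73 (0.04 to 0.95), and for the 9 pairs with Gast a median of -0.04 (-0.36 to 0.45). The lowest values without Gast were those of Ghrl with Neurog3 (0.04), Pax6 (0.21) and Neurod1 (0.32), and the highest with Gast was that of Neurog3 (0.45). These are descriptions over 8 points that share their library, its depth and its makeup of cells. The closest pair was Sst and Chgb, at r = 0.95 (rho = 1, and r = 0.92 without Yap1KO replicate 1), which ranked the 8 libraries in the same order. With the group means removed, their r was 0.91. Chgb also followed Tph1 (r = 0.95) and Chga (r = 0.92), and Gast and Chgb had r = -0.11. Relative to Chga within a library, the CPM of Sst was 34.4% to 53.8% in Yap1KO and 42.3% to 53.4% in Yap1WT. That of Gast was 15.1% to 75.4% of Chga in Yap1KO and 24.3% to 101% in Yap1WT. Chgb was at 139% to 235% of Chga in Yap1KO and 91.5% to 176% in Yap1WT, and Tph1 at 8.40% to 18.7% in Yap1KO and 6.17% to 11.4% in Yap1WT. These ratios compare libraries and not genes, because CPM does not account for gene length, and they overlapped between the groups for all of these genes.

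**Figure D4:**
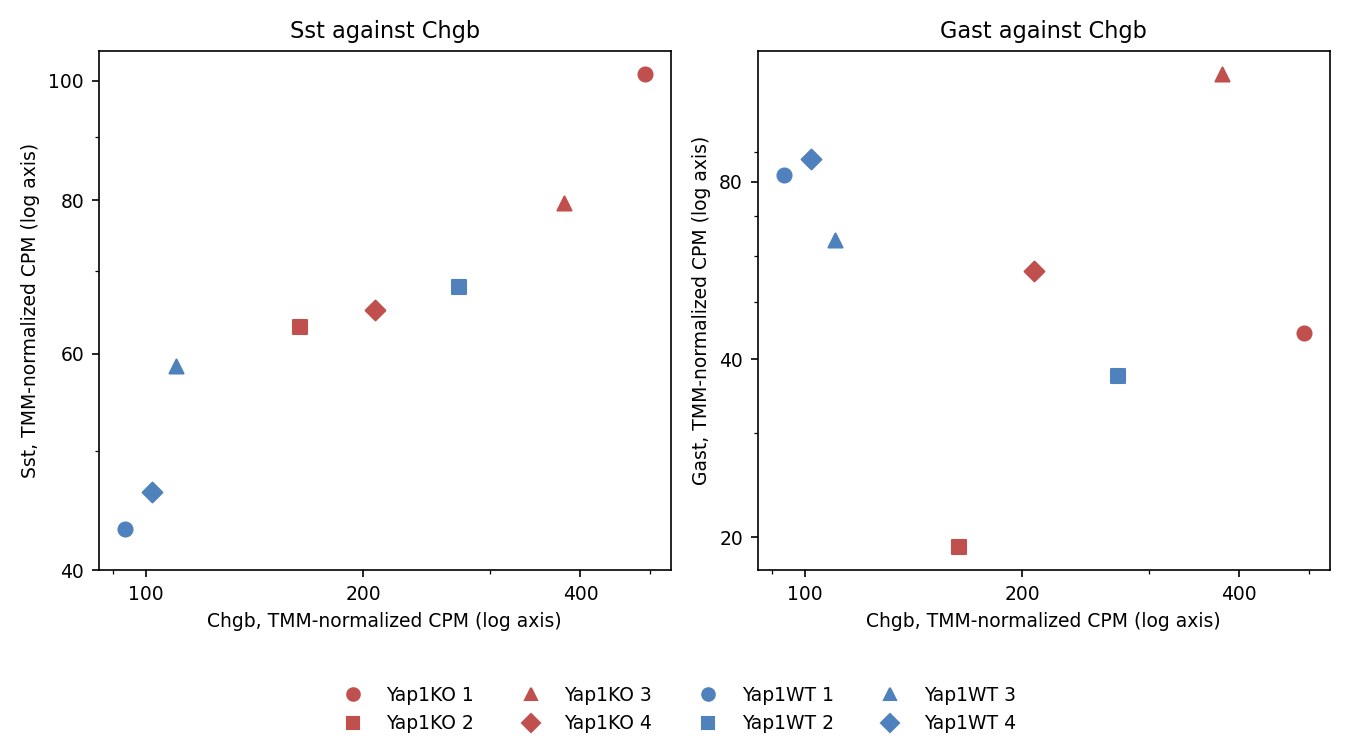
TMM-normalized CPM (log axes) of Sst (left) and Gast (right) against Chgb in the 4 Yap1KO (red) and 4 Yap1WT (blue) libraries, with 1 symbol per mouse. Sst and Chgb rank the libraries identically (rho = 1), and Gast spreads without following Chgb (r = -0.11).

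Among all 13494 other genes tested, those most like Gast across the libraries were Myc, the proto-oncogene transcription factor, Naif1, Haus6, a microtubule-nucleation subunit, Usp10, a deubiquitinase, and Pigu (r = 0.93 to 0.96 over 8 libraries, and 0.93 to 0.97 without Yap1KO replicate 1). Their spread was far smaller than that of Gast, from 14.6 to 29.5 CPM for Myc and from 80.1 to 102 CPM for Usp10. The genes most like Sst were Dner, Ly6h, Chgb, Spock2 and Zbtb10 (r = 0.94 to 0.98, and 0.90 to 0.97 without that library). Those most like Chga were Gnao1, a G-protein subunit, the hormone gene Cck, Dner, Ly6h and Scgn, the calcium sensor secretagogin of endocrine cells (r = 0.94 to 0.96). Without Yap1KO replicate 1 these last values were 0.83 to 0.92. These values rank genes over 8 libraries and carry no test.

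A further 106 genes with roles in endocrine cells, not all of them confined to such cells, were put into 5 lists, and 76 passed the filter. edgeR called 0 of the 76 higher and 1 lower, DESeq2 1 and 2, and limma-voom 2 and 1, with 9 higher and 2 lower at an unadjusted p under 0.05. Over all genes tested, the shares called higher and lower were 3.53% and 2.34% with edgeR and 6.36% and 4.35% with DESeq2. They were 4.23% and 2.85% with limma-voom, and 11.5% and 8.97% at the unadjusted threshold. For edgeR the shares of the 76 lie near or below those of all genes tested. Of the 76 log2 fold changes, 59 (77.6%) were above 0 and the median was 0.37. Over all genes tested, 48.6% were above 0 and the median was -0.01.

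The gene called lower was Maob, which encodes monoamine oxidase B, an enzyme that breaks down amines. It had 4.31, 2.94, 4.39 and 8.03 CPM in the Yap1KO libraries, against 12.3, 14.4, 25.1 and 21.9 CPM in the Yap1WT libraries. Every Yap1KO library was below every Yap1WT library, and Maob fell by 1.92 on the log2 scale (SE 0.34, adjusted p = 0.00869). Which cells held the Maob RNA was not tested. Of the other 7 tested genes of amine synthesis and storage, Slc18a1, a vesicular amine transporter, had a log2 fold change of 0.79 (adjusted p = 0.176), and Ddc, which completes serotonin synthesis after Tph1, had 0.19 (adjusted p = 0.734).

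Of 18 other peptide hormones 8 were tested, with 0 called in either direction by edgeR or DESeq2. limma-voom called 1 higher (Pyy), against 4.23% of all genes tested. At an unadjusted p under 0.05, 2 were higher, against 11.5% of all genes tested. The median log2 fold change of the 8 was 0.60. Pyy, the gene of peptide YY, had 253, 165, 164 and 186 CPM in the Yap1KO libraries, against 57.5, 172, 71.5 and 96.9 CPM in the Yap1WT libraries. Yap1WT replicate 2 again lay among the Yap1KO libraries (log2 fold change 0.95, SE 0.31, adjusted p = 0.107, and 0.0449 with limma-voom). Cck, a hormone of the upper intestine, had 49.9, 9.47, 13.2 and 5.62 CPM in Yap1KO, against 3.08, 11.9, 3.88 and 3.22 CPM in Yap1WT (log2 fold change 1.83, adjusted p = 0.163), and its highest value was in the library with the Sis counts. Ppy, a hormone of pancreatic polypeptide cells, had 28.2 to 48.5 CPM in Yap1KO and 16.4 to 63.8 CPM in Yap1WT.

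Of the 27 genes of secretory granules and prohormone processing all were tested, and edgeR called 0 (5 higher and 1 lower at an unadjusted p under 0.05, 1 and 1 with DESeq2, 0 and 0 with limma-voom). Over all genes tested those shares were 11.5% and 8.97% unadjusted, 6.36% and 4.35% with DESeq2 and 4.23% and 2.85% with limma-voom. Their median log2 fold change was 0.47 and 23 of 27 were above 0, against 48.6% of all genes. The most abundant were Ptprn2, a granule membrane phosphatase-like protein, at 167 to 338 CPM in Yap1KO and 237 to 366 CPM in Yap1WT (log2 fold change -0.11), and Pam, the enzyme that amidates gastrin and other peptides, at 187 to 252 CPM in Yap1KO and 152 to 240 CPM in Yap1WT (log2 fold change 0.28). Cpe, a carboxypeptidase that trims prohormones, had a log2 fold change of 0.49 (adjusted p = 0.119), and neither edgeR nor DESeq2 called it. DESeq2 called Pcsk1n, an inhibitor of prohormone convertase 1, higher (0.84, adjusted p = 0.045 with DESeq2 and 0.145 with edgeR), with 20.8 to 49.7 CPM in Yap1KO and 12.7 to 26.7 CPM in Yap1WT. It called Cadps2, which primes granules for release, lower (-0.46, adjusted p = 0.0439 with DESeq2 and 0.0939 with edgeR), and every Yap1KO library (29.7 to 41.5 CPM) was below every Yap1WT library (43.1 to 59.5 CPM).

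Of 25 further endocrine transcription factors 20 were tested, with 0 called by edgeR, by DESeq2 or by limma-voom and a median log2 fold change of 0.26. At an unadjusted p under 0.05, 0 were higher and 0 lower, against 11.5% and 8.97% of all genes tested. Foxa1, a forkhead factor of gut epithelium in general, had 140 to 195 CPM in Yap1KO and 153 to 249 CPM in Yap1WT (log2 fold change -0.29), and Sox4 averaged 70.9 CPM in Yap1KO and 75.3 CPM in Yap1WT (log2 fold change -0.09). Of 26 hormone receptors and nutrient sensors 13 were tested, with 0 called by edgeR or DESeq2 and a median of 0.39. limma-voom called 1 higher, against 4.23% of all genes tested, and 1 was higher at an unadjusted p under 0.05, against 11.5%. The gene called by limma-voom was Ffar2 (adjusted p = 0.0485, and 0.113 with edgeR), with 13.4 to 18.2 CPM in Yap1KO and 8.48 to 14.2 CPM in Yap1WT. Glp1r, the receptor of glucagon-like peptide 1, varied among mice from 3.98 to 73.1 CPM in Yap1KO and from 2.84 to 33.2 CPM in Yap1WT (log2 fold change 1.22, adjusted p = 0.437). Lpar5 had 11.5 to 19.7 CPM in Yap1KO and 13.7 to 21.3 CPM in Yap1WT.

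**Figure D5:**
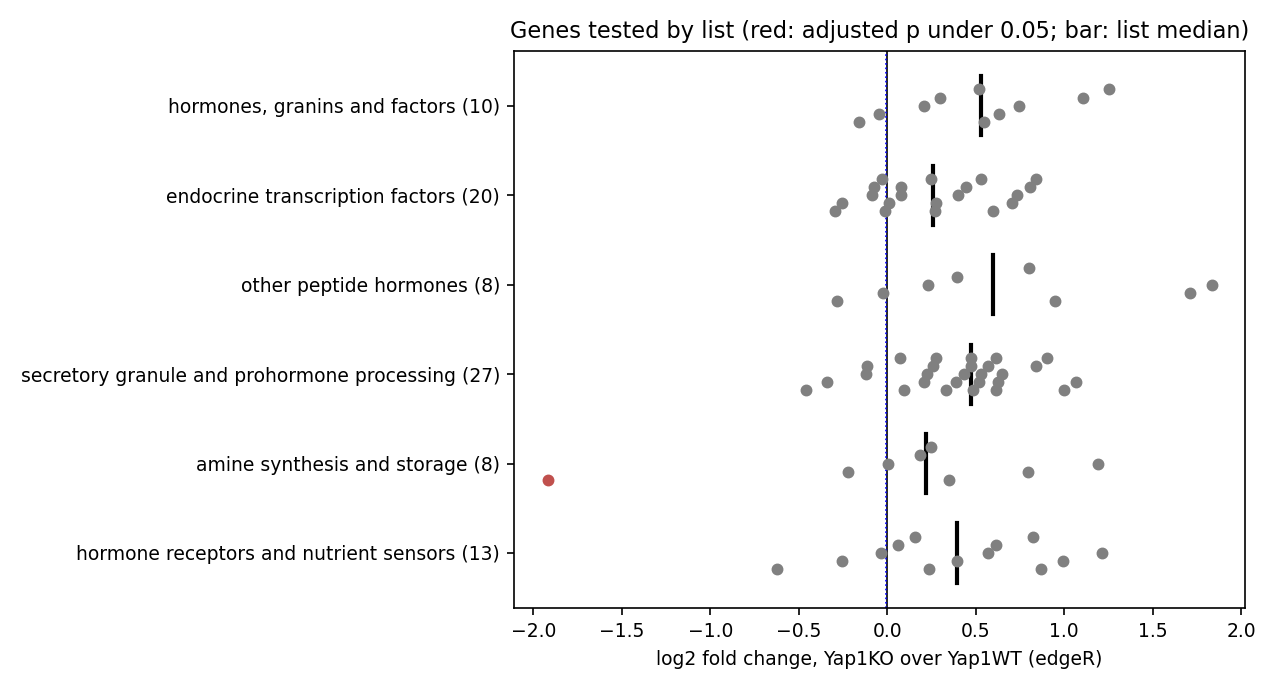
Log2 fold change of Yap1KO over Yap1WT (horizontal axis) of each gene tested, for the 10 genes and the 5 lists (rows, number tested in brackets), with the median of each list as a bar and genes with an edgeR adjusted p under 0.05 in red. Maob at -1.92 is the single red point, and the list medians lie between 0.22 and 0.60.

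Markers of other cells that such a sort could hold were compared between the groups in the same fit. Over all genes tested, edgeR called 3.53% higher and 2.34% lower, 48.6% of log2 fold changes were above 0 and the median was -0.01. With few genes per list, the counts of called genes are descriptions only. Endothelial markers, led by Plvap and Pecam1, had a summed level of 530 to 1070 CPM in Yap1KO and 166 to 577 CPM in Yap1WT (10 of 10 log2 fold changes above 0, median 1.24, 1 called higher). Fibroblast markers, led by Col3a1 and Col1a1, had 389 to 1242 CPM in Yap1KO and 143 to 876 CPM in Yap1WT (9 of 10 above 0, median 0.99, 0 called). Neurons share granins and Sst with endocrine cells, and the 14 markers of enteric neurons and glia, led by Ret and S100b, had 38.0 to 75.2 CPM in Yap1KO and 21.1 to 43.1 CPM in Yap1WT (5 tested, 1 called higher). All 5 tested log2 fold changes were above 0, with a median of 0.91. The called gene was Tubb3, a neuronal tubulin, with 3.55 to 7.47 CPM in Yap1KO and 1.55 to 2.51 CPM in Yap1WT (log2 fold change 1.42, adjusted p = 0.0299), and Ret had a log2 fold change of 1.13 (adjusted p = 0.0832, and 0.00802 with DESeq2). Of the defining neuronal markers, Vip had 0 counts in all 8 libraries and Prph at most 13. Intestinal markers, led by Vil1 and Alpi, had 528 to 830 CPM in Yap1KO and 424 to 658 CPM in Yap1WT (6 tested, 5 above 0, median 0.98, 0 called). Islet markers, led by Ppy and Ucn3, had 29.3 to 50.2 CPM in Yap1KO and 17.1 to 65.8 CPM in Yap1WT (1 tested, 0 called). Exocrine markers, led by Cela1 and Ctrb1, had 453 to 1194 CPM in Yap1KO and 256 to 404 CPM in Yap1WT (2 tested, median 1.42, 1 called higher). Outside Yap1KO replicate 2, the exocrine sum was nearly all Cela1, the called gene. Cela1 alone ranged over 451 to 595 CPM among the Yap1KO libraries, against 253 to 403 CPM for Yap1WT. Ctrb1 reached 262 CPM in Yap1KO replicate 2 but was at most 0.49 CPM in every other library. The lists that follow had median log2 fold changes below 0. Epithelial markers led by Tff2 and Gkn2 (9 tested, 1 called higher) had 4 log2 fold changes above 0 and a median of -0.02. Parietal and chief cell markers led by Pgc and Slc9a4 (7 tested, 0 called) had 3 above 0 and a median of -0.29. Of these, Atp4b had -2.61 (adjusted p = 0.0863 with edgeR and 0.0321 with DESeq2). Tuft cell markers led by Avil and Dclk1 (8 tested, 0 called) had 0 above 0 and a median of -0.39. Leukocyte markers led by Ptprc and Cd68 (3 tested, 1 called higher) had a median of -1.01 and 1 above 0. The latter was the called gene Cd68 (1.06, adjusted p = 0.0468 from edgeR), while Ptprc had -1.17. The part of these cells in the endocrine levels was not tested.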

How the data were processed

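Libraries were made with TruSeq RNA v2, which does not mark strand. The authors aligned the reads to GRCm38/mm10 with Subread and deposited whole-number counts per RefSeq gene from featureCounts, without normalization, and their tool versions are not given in the sources used here. They also deposited log2 RPKM values after voom with quantile normalization, under a header that reads FPKM. The count table holds 8 columns matched by mouse number and 6 further columns that were not used. Entries without a name (1277, 0.552% to 0.789% of counts) and 762 pseudogenes were left out.

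Counts were tested in R 4.3.3 with edgeR 4.0.16 (TMM, quasi-likelihood F test, Benjamini-Hochberg at 0.05, group only), over the 13495 genes that exceeded 0.5 CPM in 6 or more libraries, a filter from the study's methods. The script was tested on simulated data. The table gave no gene length, so the planned RPKM from counts was replaced by the deposited log2 values. DESeq2 1.42.0 and limma 3.58.1 (voom) were among the alternatives. Likeness was Pearson's r of log2(CPM + 0.5). Plots used Python 3.11.15 and matplotlib 3.10.9.

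The 10 genes, the lists and the markers were chosen with earlier results of these data known. Of each list the called genes were named (at most 4 per direction) or, with none called, the 2 most abundant; also the 5 genes most like Gast, Sst and Chga, the 2 most abundant markers per list and Yap1. Chosen after their values were seen were Epcam, Sis, Ins1, Ins2, G6pc2, Mboat4, Mcpt1, Cpa3, Tpsb2, Fcer1a, Ms4a2, Cma1, Kit, Gata2, Pax6os1, Elp4, Slc18a1, Ddc, Cck, Cpe, Cadps2, Pcsk1n, Ffar2, Tubb3, Vip, Prph, Elavl4, Nefm, Uchl1 and Atp4b. Values of 1 marker are not given here. Separate mice are replicates, and intervals cover the spread of 4 mice per group.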

Additional observations from a re-analysis of the deposited data

Results flagged for a closer look

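In Yap1WT, replicate 2 stood far from the other 3 libraries for Chgb, at 271 CPM with the nearest library at 110 CPM. Its gap over range, taken on log2 CPM, was 0.847, against a critical value of 0.829. The same library stood apart for Tph1, at 17.6 CPM with the nearest at 7.95 CPM (gap over range of log2 CPM 0.845). These were 2 of 20 groups looked at (10 genes in Yap1KO and in Yap1WT), and chance gives about 1 in 20. The 2 genes share that library, so the flags are not independent, and the cause was not tested.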

How the results depend on the processing

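Genes called higher and lower in Yap1KO numbered 476 and 316, against 858 and 587 with DESeq2, and 238 to 483 and 154 to 283 when 1 library was left out (lowest without Yap1WT replicate 3 in both directions). Of the 10 genes, 0 were called higher, 1 with DESeq2 (Tph1), and 0 to 2 without 1 library, namely 1 without Yap1KO replicate 2 (Tph1) and 2 without Yap1WT replicate 2 (Chgb and Tph1). None was called lower under any of the 18 alternatives, which also covered voom, RLE factors, both other filters, other library sizes, a block for mouse series, deposited values and robust dispersion. Signs turned when 1 library was left out for Gast (log2 fold change -0.76 to 0.14), Neurog3 (-0.29 to 0.63), Neurod1 (-0.031 to 0.42, below 0 without Yap1KO replicate 1 or Yap1WT replicate 1) and Pax6 (-0.21 to 0.12, above 0 without Yap1KO replicate 2 or 4 or Yap1WT replicate 2 or 4), and for Neurog3 (-0.32) with limma-trend on the deposited log2 values. The cause was not tested. With 1 library fewer, a gene had to pass the filter in 1 library fewer.

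Replicate numbers occur in both groups, and deviations of same-numbered libraries correlated at 0.036, 0.35, 0.05 and 0.15. Pairs of a Yap1KO and a Yap1WT library correlated at 0.036 to 0.35 within a mouse series and at -0.24 to 0.071 across the series. Whether the numbers pair the mice cannot be told from these values. A fit with the replicate number as a block called 755 genes higher and 552 lower, and 0 of the 10 genes in either direction. The block for mouse series called 598 higher and 451 lower, and 0 of the 10 genes in either direction. Under that block the lowest edgeR adjusted p values of the 10 genes were 0.0919 for Tph1 and 0.097 for Ghrl. All 10 genes passed the filter, so the permutation test planned for genes outside it had no case and its pseudocount alternatives were not run. Depth limits Neurog3 most, with 11 counts in 1 library.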
